A study of Mus musculus with 8 samples.

Results

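The genes of the proteasome were followed in Neuro2A (N2A) cells, a mouse neuroblastoma line that grows neurites when its cannabinoid receptor CB1R is stimulated. A gene was counted as a proteasome gene when its symbol was Psma, Psmb, Psmc, Psmd, Psme, Psmf or Psmg followed by a number, or Pomp. This gave 46 genes among the 16974 genes of the table. The list of roles used to order them holds 49 names, and the remaining 3, Psma8, Psmb9 and Psmb11, were not analysed here.

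Bulk mRNA was sequenced from 8 libraries, 1 for each combination of treatment and time. All cells were first kept for 16 h in serum-free medium with 0.1% bovine serum albumin. They then received either 2 µM HU210, a potent CB1R agonist dissolved in DMSO, or drug-free DMSO, and were collected after 2, 4, 6 or 8 h. Each library was a pool of 2 to 3 independent experiments, so that no library has a replicate of its own condition.

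The proteasome is the protease that degrades most short-lived and damaged proteins in the cytosol and nucleus, usually after they have been tagged with ubiquitin. Its barrel-shaped core particle, called 20S, is made of outer rings of alpha subunits (Psma) and inner rings of beta subunits (Psmb), of which 3 beta subunits cut peptide bonds. The regulatory particle, called 19S, caps the core, and its ATPases (Psmc) unfold what its non-ATPase subunits (Psmd) recognise and strip of ubiquitin. Other caps (Psme) open the core without ATP, and dedicated chaperones (Pomp, Psmg and some Psmd) put the particles together. In neurons, proteasomes are needed for the turnover of proteins in axons and at synapses.

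Levels were given as FPKM, fragment counts divided by transcript length and by depth, and differences as the log2 of the ratio of HU210 to DMSO of the same hour, with 1 added to either FPKM. The cutoffs were 1.5-fold and 1.3-fold, which are 0.585 and 0.379 on the log2 scale. With 1 library per condition there was no test at a time point. Whether the libraries of different hours were scaled together was not given in the sources used here, which limits any level set across hours. In bulk RNA, fewer cells and less RNA per cell cannot be told apart. Of 13 markers of the N2A lineage, 12 were found and 9 had an FPKM of at least 1 in all 8 libraries. Nefl and Nefm were listed near 0, and Dbh ran from 0.73 to 1.44. The summed FPKM of the lineage markers was 433 to 554 with HU210 and 448 to 516 with DMSO. Of 9 markers of fibroblasts, leukocytes, astrocytes and endothelium, 6 were found. None of the 6 had an FPKM of at least 1 in all 8 libraries, and 4 were below 1 in all 8. Pecam1, of endothelium, ran from 0.93 to 1.28. The summed FPKM of the 6 was 2.29 to 3.16 with HU210 and 2.55 to 2.86 with DMSO. The DMSO libraries of 4 h and 6 h lay farthest from the others for the proteasome genes. The 4 h DMSO library held the highest of the 8 values for 20 of the 46 proteasome genes and for 27.3% of the 11311 genes with a mean FPKM of at least 1, and the 4 h values against the other DMSO libraries follow those by hour. The 6 h DMSO library held the lowest value for 13 of the 46, or 28.3%, and the highest for 0. Over the 11311 genes it held the lowest for 13.3% and the highest for 6.04%. The median size of the deviation from the other 3 libraries of the same treatment was 0.22 on the log2 scale for the first and 0.18 for the second, and at most 0.12 for the other 6 libraries.

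All 46 proteasome genes were expressed in all 8 libraries at an FPKM of at least 1. The median of their mean FPKM was 73.6, against 12.7 over the 11311 genes with a mean of at least 1, and 45 of the 46 lay above that median. Over the 8 libraries the values of 33 of the 46 stayed within 1.5-fold, and 1 gene, Psma3, moved by more than 2-fold. The median coefficient of variation over the 8 libraries was 10.99% for the proteasome genes and 11.5% for the genes with a mean FPKM of at least 1, so that proteasome genes varied about as much as other genes.

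The highest levels were those of core subunits. Psmb6 had a mean FPKM of 235.6 ± 34.4 (SD over the 8 libraries), Psmb1 234.4 ± 9.41 and Psma7 220.9 ± 15.7, which differ by less than the SD of Psmb6. The lowest were Psme2, a subunit of the PA28 cap, at 5.41, the immunoproteasome subunit Psmb8 at 13.5 and the 19S chaperone Psmd9 at 16.2. The beta ring had a median level of 163.5 and the alpha ring of 55.4, with the 19S ATPases at 94.7. Near-identical copies, described further on, bear on that order: with the copies summed in, an alternative added after the values had been seen, the medians were 166.5 for the beta ring and 108.8 for the alpha ring, which then lay above the ATPases. Assembly factors had a median of 31.5, with Pomp, the chaperone of beta ring assembly, far above the others at 144.1.

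Psmb6, Psmb5 and Psmb7 encode the beta subunits that cut after acidic, hydrophobic and basic residues, and they are the constitutive counterparts of the interferon-inducible Psmb9, Psmb8 and Psmb10. Psmb9 was not analysed here. The FPKM of Psmb5 was 127, 136, 120 and 104 in the HU210 libraries of 2, 4, 6 and 8 h, in that order, and 121, 91.6, 130 and 107 with DMSO. This order of hours is kept for all values that follow. The FPKM of Psmb8 was 13.9, 13.5, 12.9 and 12.6 with HU210 and 15.1, 13.5, 12.3 and 13.9 with DMSO. Psmb5 thus stood above its counterpart in every library, at a ratio of 8.72 ± 1.28 (SD, 8 libraries). The FPKM of Psmb7 was 145, 154, 157 and 171 with HU210 and 162, 190, 143 and 188 with DMSO. Psmb10 was at 21.3, 22.05, 18.9 and 20.6 with HU210 and at 21.3, 17.9, 19.9 and 23.2 with DMSO. The ratio of Psmb7 to Psmb10 was 7.97 ± 1.21. For both pairs the range of the HU210 libraries overlapped that of the DMSO libraries, so the balance between constitutive and immunoproteasome subunits did not separate the treatments.

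At 2 h, 39 of the 46 proteasome genes were lower with HU210 than with DMSO, by little. Their median log2 change was -0.098, and the values ran from -0.50 to 0.12. Of the 11239 genes with an FPKM of at least 1 at that hour, 64.04% were lower with HU210 and the median was -0.051. No proteasome gene passed 1.5-fold, against 1.33% of all listed genes lower and 0.691% higher. One gene passed 1.3-fold, Psma5, an alpha ring subunit, which was lower at a log2 change of -0.50; of all listed genes 3.3% were lower and 1.61% higher by that cutoff. Psma5 had FPKM of 18.9, 23.8, 27.6 and 25.4 with HU210 and 27.2, 29.7, 28.0 and 23.8 with DMSO, and its near-identical copy described further on bears on that value.

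At 4 h the proteasome genes spread apart, in both directions. The SD of their log2 changes was 0.41, against 0.13 at each of the other time points, and that of all genes with an FPKM of at least 1 was 0.39 at 4 h. Of the 46 genes, 6 were at least 1.5-fold lower with HU210 and 1, Psmb6, was higher at the very edge of the cutoff. Among all listed genes 6.46% were 1.5-fold lower and 2.16% higher at 4 h. At 1.3-fold, 10 of 46 were lower and 5 were higher, against 14.5% and 6.61% of all listed genes, and against 19.8% and 8.9% of the 11177 genes with an FPKM of at least 1, called expressed genes here. As shares of the 46, these are 13.04% lower and 2.17% higher at 1.5-fold and 21.7% lower and 10.9% higher at 1.3-fold, against 8.5% of the expressed genes 1.5-fold lower. At 1.3-fold the proteasome genes stood near the expressed genes in both directions. None of these differences in share was tested. The median log2 change was -0.079 for the proteasome genes and -0.081 for the expressed genes.

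**Figure D1:**
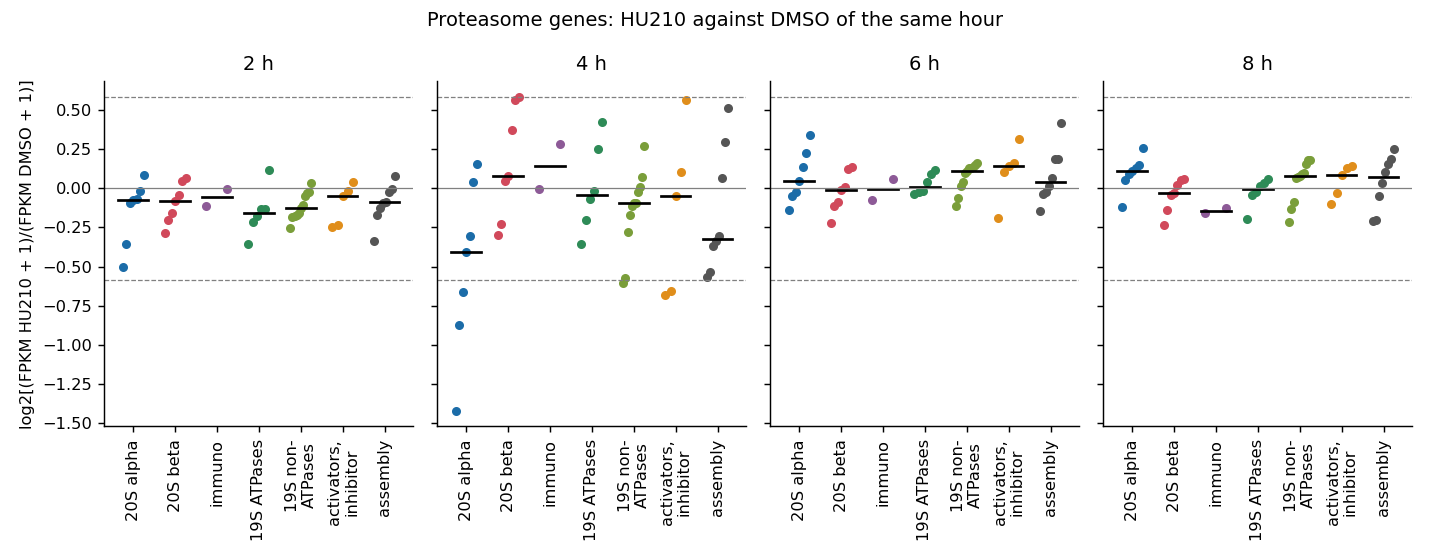
Log2 change with HU210 against DMSO of the same hour (y axis) for the 46 proteasome genes, by role (x axis), in 1 panel per time point. Each point is a gene and each black bar the median of a role, and dashed lines mark 1.5-fold; the points spread from -1.42 to 0.59 at 4 h and lie between -0.50 and 0.42 at the other hours.

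The alpha ring held the lowest values at 4 h. Of its 7 genes, 3 were 1.5-fold lower and 5 were below 0, with a median log2 change of -0.41. Against the DMSO libraries of the other hours, a comparison described further on, that median was -0.14. Psma5, at -0.31, was among the 5 and was at 0.08 when summed with its near-identical copy. Psma3 (ENSMUSG00000060073, mm9 chr12:72075608-72097334, plus strand) had FPKM of 42.9, 30.2, 46.7 and 43.9 with HU210, in order of time, and of 55.2, 82.4, 36.7 and 40.6 with DMSO. The 4 h DMSO library was its highest and the 4 h HU210 library its lowest, and the log2 change of -1.42 was the largest of any proteasome gene in this table. Psma6 (ENSMUSG00000021024, chr12:56485209-56519441, plus strand) was at 175, 154, 173 and 191 with HU210 and at 183, 284, 157 and 208 with DMSO. Its 4 h DMSO value stood above the 7 other values, and its log2 change at 4 h was -0.88. Psma4 (ENSMUSG00000032301, chr9:54798597-54805837, plus strand) was at 57.8, 43.9, 58.4 and 55.7 with HU210 and at 61.6, 69.9, 49.8 and 46.5 with DMSO, a log2 change of -0.66 at 4 h. For each of these 3 genes the HU210 and DMSO ranges over the 4 hours overlapped. Psma1 was also past 1.3-fold at -0.41, whereas Psma2 and Psma7 were at 0.15 and 0.04.

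The beta ring did not follow the alpha ring at 4 h, with a median log2 change of 0.08 over its 7 genes. It was 0.10 against the DMSO libraries of the other hours. Psmb6 (ENSMUSG00000018286, chr11:70338869-70341360, plus strand) had FPKM of 274, 283, 225 and 212 with HU210 and of 265, 188, 227 and 209 with DMSO, which gave a log2 change of 0.59 at 4 h. Psmb5 (ENSMUSG00000022193, chr14:55232644-55236851, minus strand), whose values are given above, was just inside the cutoff at 0.56. In both genes the 4 h HU210 library was the highest of the 8 and the 4 h DMSO library the lowest. The third catalytic subunit, Psmb7, went the other way at -0.30, so the catalytic subunits did not move together. Psmb3 was at 0.37, and Psmb1, Psmb2 and Psmb4 lay between -0.23 and 0.08. The immunoproteasome subunits Psmb8 and Psmb10 were at -0.0012 and 0.28.

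The ATPases of the 19S particle changed little. Their 6 values at 4 h ran from -0.35 for Psmc6 to 0.42 for Psmc4, which was the only ATPase past 1.3-fold. Among the 11 non-ATPases, which ran from -0.60 to 0.27, Psmd1, a large scaffold of the base, was the only gene past 1.5-fold. Psmd1 (ENSMUSG00000026229, chr1:87960962-88059363, plus strand) was at 73.9, 65.6, 82.8 and 77.0 with HU210 and at 83.1, 100.3, 74.6 and 72.8 with DMSO, a log2 change of -0.60 at 4 h. The lid subunit Psmd6 was just inside the cutoff at -0.57. Psmd14, the lid's deubiquitinase, was at -0.28, and the ubiquitin receptor Psmd4 at -0.09.

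The caps split. Psme3, which forms the nuclear PA28 gamma cap, and Psme4, the single-chain PA200 cap, were 1.5-fold lower at 4 h. Psme3 (ENSMUSG00000078652, chr11:101177527-101184851, plus strand) was at 93.2, 75.4, 84.3 and 88.1 with HU210 and at 90.7, 121.4, 76.1 and 94.5 with DMSO, a log2 change of -0.68. Psme4 (ENSMUSG00000040850, chr11:30671726-30780361, plus strand) was at 37.0, 37.3, 49.0 and 46.3 with HU210 and at 44.1, 59.3, 39.2 and 41.9 with DMSO, a log2 change of -0.66. Psme1, a subunit of the interferon-inducible PA28 cap of the cytosol, was higher at 0.57, just inside the cutoff, with FPKM of 46.5, 61.3, 46.3 and 49.1 with HU210 and of 48.1, 41.0, 52.9 and 50.1 with DMSO. Psmf1, which inhibits the core, was at -0.05.

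At 4 h the median log2 change of the assembly factors was -0.32, and their values ran from -0.57 to 0.51. Against the DMSO libraries of the other hours that median was -0.0037. The 19S chaperones Psmd5 and Psmd10 (gankyrin) were 1.3-fold lower at -0.57 and -0.53, and Psmg3, a partner in the chaperone pair that places alpha subunits, was 1.3-fold higher at 0.51. Pomp (ENSMUSG00000029649, chr5:148672204-148687354, plus strand) had FPKM of 123, 132, 139 and 158 with HU210 and of 156, 163, 137 and 146 with DMSO. Pomp was below its DMSO library at 2 h and 4 h, at log2 changes of -0.34 and -0.31, and close to it at 6 h and 8 h, at 0.02 and 0.10.

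**Figure D2:**
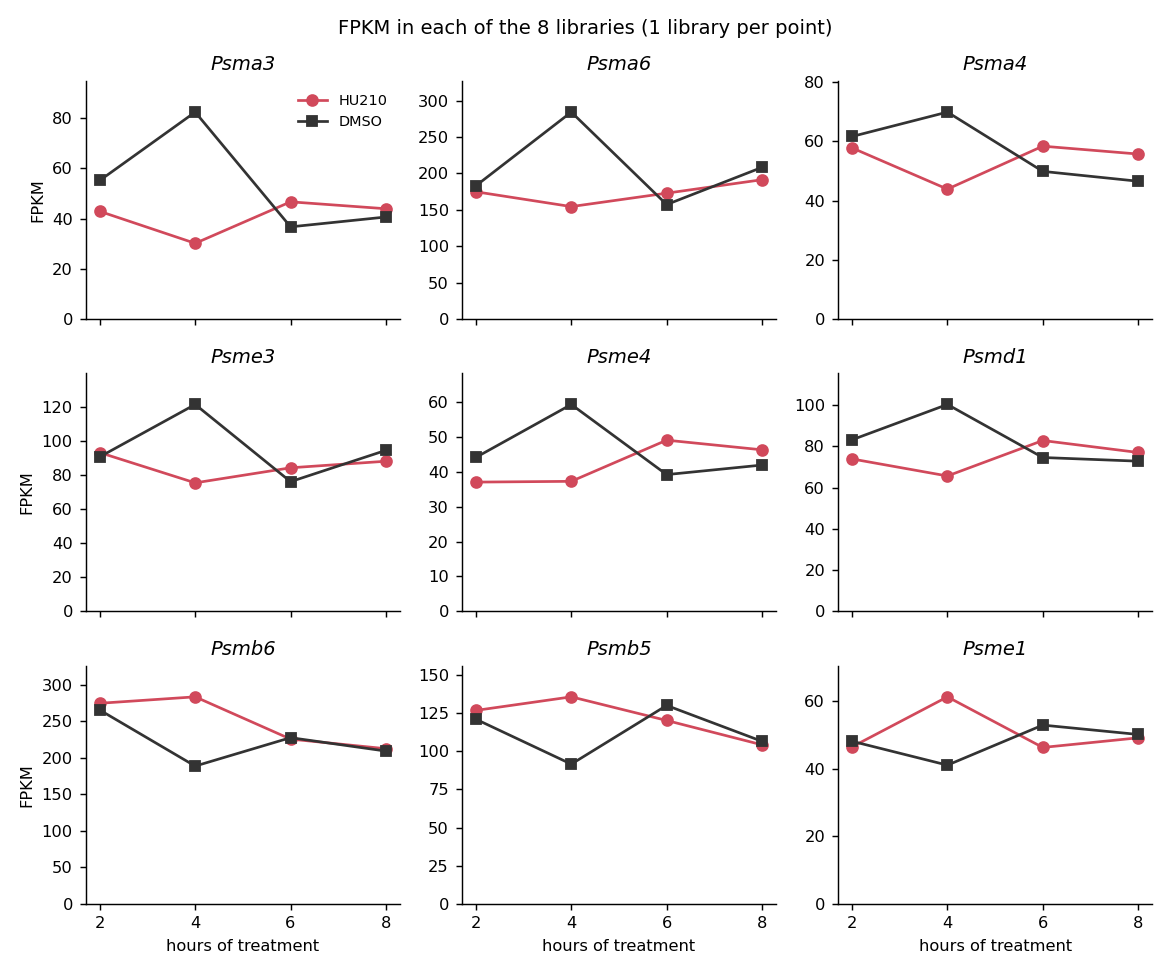
FPKM (y axis, from 0) by hours of treatment (x axis) for 9 proteasome genes, with HU210 as red circles and DMSO as black squares; each point is 1 library and has no error bar. The first 6 genes have their highest value in the 4 h DMSO library, Psma3 at 82.4, and the last 3 have their lowest there, Psmb6 at 188.

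At 6 h, 29 of the 46 genes were above 0 and 17, or 37.0%, were below. Of all genes with an FPKM of at least 1, 34.2% were below 0. The median log2 change of the proteasome genes was 0.054, against 0.063 over those genes. No proteasome gene passed 1.5-fold, where 0.837% of all listed genes were lower and 1.58% higher. Psmg1, which pairs with Psmg2 to guide alpha ring assembly, was the only gene past 1.3-fold, against 1.81% lower and 5.14% higher over all listed genes. Psmg1 had FPKM of 35.0, 34.2, 36.7 and 33.6 with HU210 and of 37.3, 44.4, 27.2 and 29.4 with DMSO, a log2 change of 0.42 at 6 h. Its HU210 values were nearly level, and the DMSO values moved. The call ended against the DMSO libraries of the other hours, at 0.0067, against the mean of all 4, at 0.11, with centring, at 0.356, and with the GC and length trend removed, at 0.36.

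At 8 h no proteasome gene passed either cutoff, and 28 of the 46 were above 0. The other 18, or 39.1%, were below 0, against 37.4% of all genes with an FPKM of at least 1. The median log2 change was 0.053, against 0.044 over all genes with an FPKM of at least 1. Of all listed genes, 0.629% were 1.5-fold lower and 1.16% higher, and 1.48% were 1.3-fold lower and 3.72% higher. The values of proteasome genes at 8 h ran from -0.23 to 0.25.

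The 7 genes past 1.5-fold at 4 h were set against the DMSO libraries of the other 3 hours as well, a comparison added after the values had been seen. Against the mean of DMSO for 2 h, 6 h and 8 h, none of the 7 passed 1.5-fold in the 4 h HU210 library. Of all genes, 1.08% were 1.5-fold lower and 0.384% higher by that reference. All 7 kept their sign, which had to be so for each gene in which that library was the lowest or highest of the 8. Psma3 was at -0.52, Psma4 at -0.25, Psma6 at -0.23, Psmd1 at -0.22, Psme3 at -0.20, Psme4 at -0.16 and Psmb6 at 0.28. Over all 46 genes the median size of the log2 change fell from 0.29 to 0.14, and 38 of 46 were closer to 0. The 4 h DMSO value lay outside the range of the 7 other libraries for 27 of the 46 genes, and the 4 h HU210 value for 15. The 4 h DMSO library was highest for 43.5% and lowest for 15.2% of the 46, against 27.3% and 18.3% of the 11311 genes. For the 4 h HU210 library these shares were 17.4% and 15.2%, against 12.4% and 20.5%. Such extremes were thus common among all genes in both libraries, and the differences in share were not tested. Psma3 was the only proteasome gene that stayed past 1.3-fold at 4 h against the mean of DMSO for 2 h, 6 h and 8 h. By that reference 2.89% of all genes were 1.3-fold lower and 1.25% higher. There is 1 DMSO library at 4 h, so the hour, the drug and that library cannot be told apart.

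**Figure D3:**
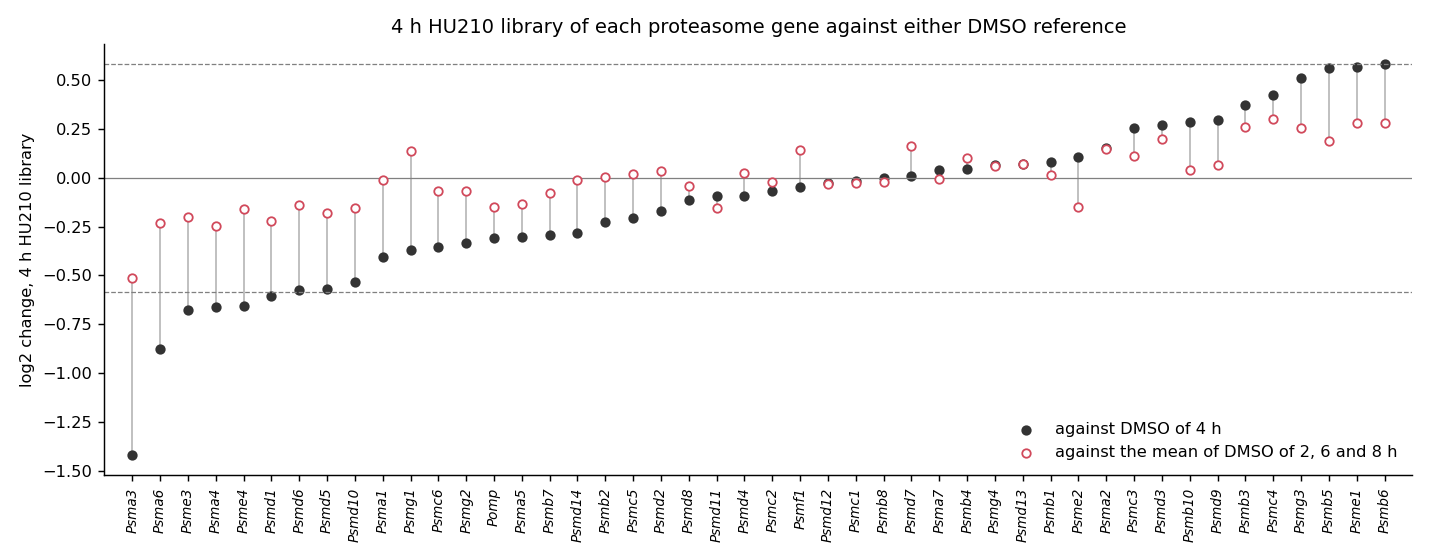
Log2 change of the 4 h HU210 library (y axis) for each of the 46 proteasome genes (x axis, in order of the change). Filled points take the 4 h DMSO library as reference and open points the averaged DMSO values of 2 h, 6 h and 8 h. Dashed lines mark 1.5-fold; 7 filled points and no open point reach them.

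The 4 h changes of proteasome genes followed the base composition of their transcripts. Across the 46 genes, which are measured in the same 2 libraries, the log2 change at 4 h rose with the GC content of the transcript that has the longest coding sequence (Pearson 0.68, Spearman 0.73) and with that of its coding sequence (0.77 and 0.78). Over 10510 genes with an FPKM of at least 1 the same correlation was 0.48 (Spearman 0.53). At the other hours the correlation across proteasome genes was 0.10 at 2 h, -0.31 at 6 h and -0.30 at 8 h. Of the 23 genes with a GC content below the median of 49.8%, 21 were below 0 at 4 h, 10 were 1.3-fold lower and none was 1.3-fold higher. Of the 23 at or above it, 16 were above 0, none was 1.3-fold lower and 5 were 1.3-fold higher. Among all 4709 genes of the same lower GC range 33.3% were 1.3-fold lower, and among the 4611 of the upper range 11.2% were 1.3-fold higher. The rings differ in the same measure: the median GC content was 45.0% for alpha subunits and 52.2% for beta subunits. The deviation of the 4 h DMSO library from the other DMSO libraries correlated with GC content at -0.66 across the proteasome genes and -0.40 across 10595 genes, and that of the 4 h HU210 library at 0.59 and 0.38. Such correlations were not limited to 4 h: the 6 h DMSO library was at 0.51 and 0.31 and the 8 h HU210 library at -0.54 and -0.22. The part of base composition in the 4 h changes was not tested further than by removing its trend. After a loess trend on GC content and transcript length, fitted over all genes, was removed, 2 of the 7 genes stayed past 1.5-fold, Psma3 at -1.11 and Psma6 at -0.72. Of all genes, 3.52% were then 1.5-fold lower and 2.36% higher. The medians were then -0.20 for the alpha ring, 0.21 for the beta ring and -0.20 for the assembly factors.

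**Figure D4:**
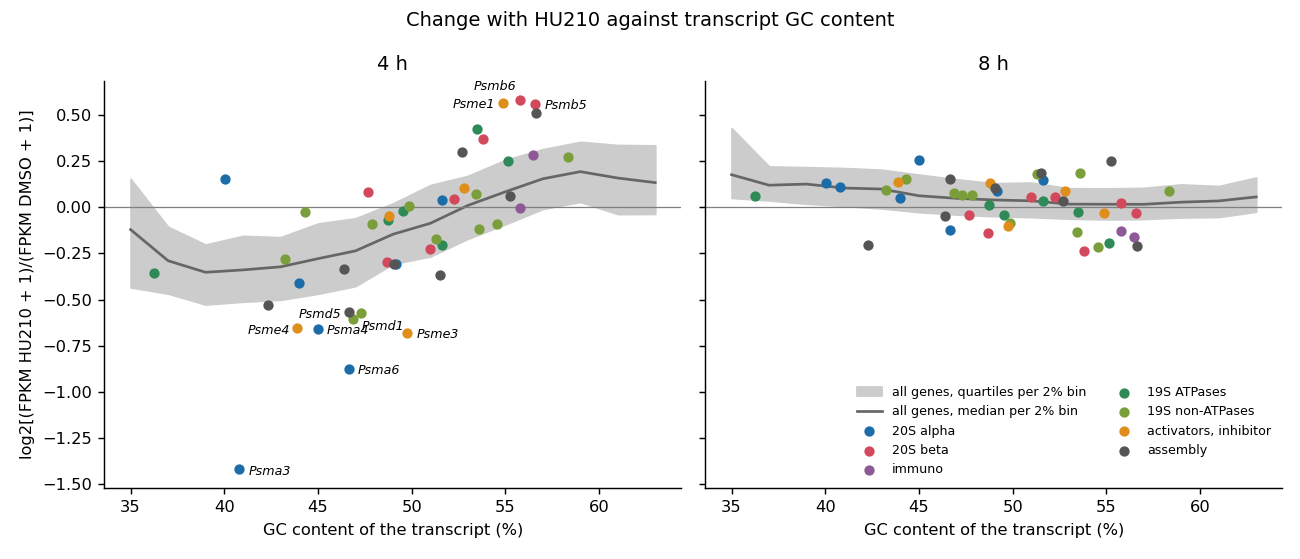
Log2 change with HU210 (y axis) against the GC content of the transcript in percent (x axis) at 4 h and 8 h. Coloured points are the 46 proteasome genes by role, and the line and grey band are the median and quartiles of all expressed genes per 2% of GC content; at 4 h the points rise from -1.42 for Psma3 to 0.59 for Psmb6, and at 8 h they do not.

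The contrast can be read in the coding sequences. A stretch of 90 bases from the coding exons of 2 genes that were lower at 4 h and of 2 that were higher is printed from the mm9 genome, 5′ to 3′ on the strand of the gene, with G and C in capitals. The stretches were taken where the GC content was nearest that of the whole coding sequence. That of Psma3 (chr12:72085491-72085580, coding exon 4 of 11) holds 43.3% G and C and that of Psma6 (chr12:56508461-56508550, coding exon 2 of 7) 44.4%. That of Psmb5 (chr14:55235509-55235598, minus strand, coding exon 2 of 3) holds 57.8% and that of Psmb6 (chr11:70339796-70339885, coding exon 3 of 6) 56.7%.
Psma3: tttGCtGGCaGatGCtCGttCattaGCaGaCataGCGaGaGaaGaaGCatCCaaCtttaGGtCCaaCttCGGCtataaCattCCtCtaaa
Psma6: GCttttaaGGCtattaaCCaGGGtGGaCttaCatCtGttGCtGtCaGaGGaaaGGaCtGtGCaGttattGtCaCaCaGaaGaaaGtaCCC
Psmb5: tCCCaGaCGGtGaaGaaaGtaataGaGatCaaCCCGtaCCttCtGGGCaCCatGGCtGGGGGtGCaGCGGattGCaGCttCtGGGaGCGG
Psmb6: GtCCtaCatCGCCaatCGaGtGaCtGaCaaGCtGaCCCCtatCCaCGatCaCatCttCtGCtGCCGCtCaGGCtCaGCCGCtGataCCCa

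Several proteasome genes have copies elsewhere in the genome that share most of their letters, and 12 such copies of 9 genes were in the table. For 4 of the 9 a copy was listed at a higher mean FPKM than the gene itself. Psma5 had a mean of 25.5 and Psma5-ps one of 83.2. Psme2 had 5.41 and Psme2b 77.5. Psmb3 had 57.7 and Gm4950 84.4, and Psmd11 had 30.6 and Gm14048 46.9. Gm5422, a copy of Psmd2, was at 71.8 beside 84.6 for Psmd2. The other 7 copies had means from 0.209 to 6.45. Within the coding sequence, Psma5-ps was identical to Psma5 at 98.9% of aligned positions, with 8 mismatches in 723, and Psme2b to Psme2 at 99.3%, with 5 in 717. Reads from the identical stretches cannot be told apart by sequence, and the levels of these genes and copies are uncertain for that reason.

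For Psma5 and Psme2 the 60 bases with the most mismatches between gene and copy are printed, 5′ to 3′, with the differing letters in capitals. They show how little there is to tell a read of either apart. Those of Psma5 are positions 19 to 78 of its coding sequence, beside Psma5-ps at mm9 chr10:84776332-84776391. Those of Psme2 are positions 484 to 543, beside Psme2b at chr11:48759078-48759137 on the minus strand.
Psma5: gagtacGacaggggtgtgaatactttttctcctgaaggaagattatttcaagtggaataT
Psma5-ps: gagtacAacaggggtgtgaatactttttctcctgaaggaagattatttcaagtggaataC
Psme2: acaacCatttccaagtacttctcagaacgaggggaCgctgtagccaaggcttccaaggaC
Psme2b: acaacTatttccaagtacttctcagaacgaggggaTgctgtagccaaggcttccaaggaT

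Summed with their copies, some genes read otherwise, an alternative added after the values had been seen. Psma5 with Psma5-ps was at 109.7, 113.6, 109.8 and 98.9 FPKM with HU210 and at 123.0, 107.4, 116.7 and 91.0 with DMSO, and its log2 change at 2 h went from -0.50 to -0.16, so that no proteasome gene was left past 1.3-fold at 2 h. Psme2 with Psme2b was at 78.8, 91.6, 83.3 and 83.5 with HU210 and at 83.2, 61.3, 87.1 and 94.4 with DMSO, a log2 change at 4 h of 0.57 in place of 0.11. Psme1, with which Psme2 forms the PA28 ring, was also at 0.57 in the same pair of libraries. For the sum and for Psme1 the 4 h DMSO library was the lowest of the 8, at 61.3 and 41.0. Against the DMSO libraries of the other hours, Psme1 was at 0.28. The ratio of Psme1 to Psme2 was 9.24 ± 1.48 (SD, 8 libraries) for the gene alone and 0.599 ± 0.0493 for the sum. Whether the reads listed under Psme2b come from Psme2 was not tested. For Psma3, whose copy Gm5406 is low, the sum gave -1.22 at 4 h. Psmb6 moved from 0.59 to 0.58, just inside the cutoff.

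**Figure D5:**
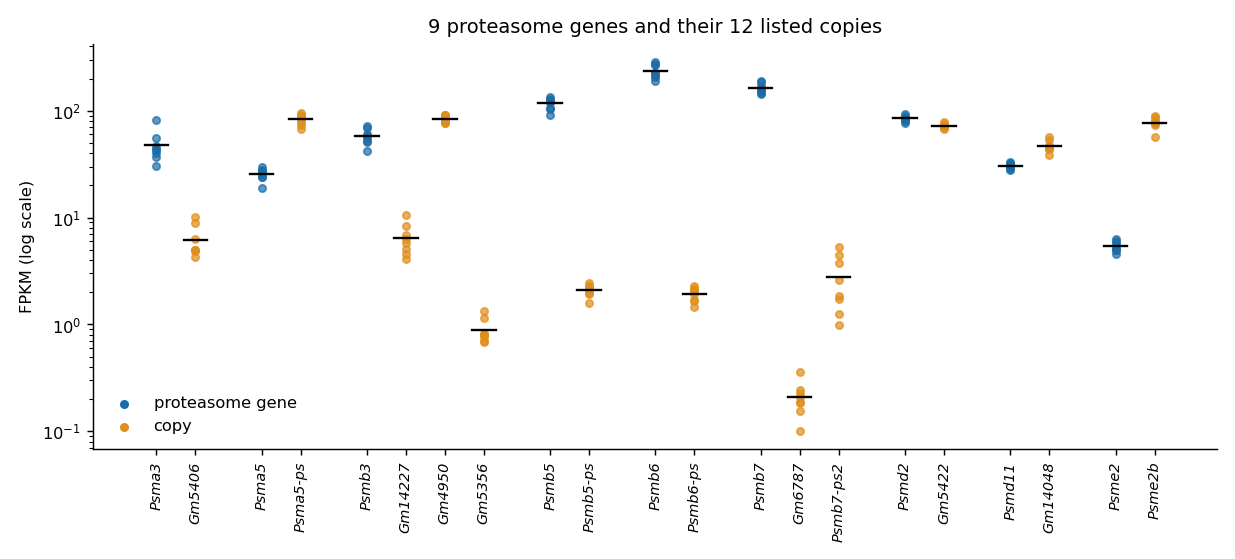
FPKM on a log axis (y axis) of 9 proteasome genes (blue) and their 12 listed copies (orange) in the 8 libraries (points), with the mean as a black bar. Psma5-ps, Gm4950, Gm14048 and Psme2b lie above the gene they copy, Psme2b at a mean of 77.5 and Psme2 at 5.41.

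Over the 4 time points, no difference between treatments was found. In a limma fit of log2(FPKM + 1) with time as a block, 0 of 11311 genes passed an adjusted p (Benjamini-Hochberg) of 0.05, a share of 0%, and 146 genes had an unadjusted p under 0.05. None of the 46 proteasome genes was among these, and the smallest p was that of Psmd10, at 0.057 with limma, which did not pass the adjustment. Their estimates ran from -0.33 to 0.16, with a median of -0.04. No proteasome gene had all 4 HU210 libraries on one side of all 4 DMSO libraries, against 0.371% of genes in either direction.

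The drug difference at the late hours, 6 h and 8 h, was also compared with that at the early hours, 2 h and 4 h. A limma fit called 0 of 11311 genes, again 0%, at an adjusted p of 0.05, and 1915 genes, or 16.9%, had an unadjusted p under 0.05. Of the 46 proteasome genes 7, or 15.2%, were among these, a share near that of all genes. They were Psme4, Psma3, Psmg1, Psma4, Psma5, Pomp and Psmd1. All 7 went up from early to late, by a log2 difference of 1.11 ± 0.34 (SE) for Psma3, 0.68 ± 0.19 for Psme4, 0.61 ± 0.21 for Psma4 and 0.53 ± 0.17 for Psmg1, and by less for the others. Summed with its copy, Psma5 had a difference of 0.057 in place of 0.44. The adjusted p of the 7 in limma lay between 0.237 and 0.273, so none passed. The median over all 46 was 0.17, against 0.12 over all genes. The 4 h libraries enter this difference.

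Other genes that act with the proteasome were taken from a list of 28, of which 27 were found. At 2 h none of the 27 passed 1.3-fold, and the median log2 change was -0.12. At 4 h 3 were 1.5-fold lower and none higher, and 7 were 1.3-fold lower, beside 8.5% and 19.8% of the expressed genes lower by these cutoffs. The median was -0.25, and the list was not tested. Akirin2, which carries assembled proteasomes into the nucleus, was at 27.1, 19.1, 35.0 and 35.6 FPKM with HU210 and at 31.5, 51.1, 21.9 and 23.7 with DMSO, so that its log2 change went from -1.38 at 4 h to 0.65 at 6 h, with 0.57 at 8 h. Zfand5, a zinc finger protein that activates the proteasome, was at 23.0, 15.1, 25.4 and 22.1 with HU210 and at 25.6, 33.0, 16.2 and 24.4 with DMSO, so that its log2 change went from -1.08 at 4 h to 0.62 at 6 h. Rps27a, which encodes a ubiquitin fused to a ribosomal protein, was at 178, 164, 205 and 183 with HU210 and at 196, 320, 190 and 172 with DMSO, a log2 change of -0.96 at 4 h. In all 3 the 4 h DMSO library was the highest of the 8, and against the other 3 DMSO libraries the 4 h values were -0.40, -0.49 and -0.18. At 6 h Akirin2 and Zfand5 were the 2 genes past 1.5-fold and 4 of 27 were 1.3-fold higher, where 1.58% and 5.14% of all listed genes were, and the median was 0.11. At 8 h Akirin2 alone was 1.3-fold higher, and the median was 0.07. Against the DMSO libraries of the other hours these values fell inside both cutoffs, at 0.05 for Akirin2 and -0.11 for Zfand5 at 6 h and at 0.11 for Akirin2 at 8 h. No gene of the list was called by limma in either fit.

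Of 7 genes of antigen presentation that share interferon control with the immunoproteasome, none passed 1.5-fold at any hour. At 4 h B2m was 1.3-fold lower at -0.49 and Tap2 1.3-fold higher at 0.39. Of the expressed genes 19.8% were 1.3-fold lower and 8.9% higher at that hour. Against the DMSO libraries of the other hours, B2m was at -0.14 and Tap2 at 0.04, inside both cutoffs.

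The promoters of the proteasome genes were searched for 3 motifs, since the genes belong to 1 machine. RefSeq promoters of GRCm38.p6, 250 bases before to 50 after a transcription start, were at hand for 39 of the 46 genes, 42 promoters in all. The letters CCGGAAG, the core bound by ETS factors, were on either strand in 16 of the 42, or 38.1%, against 8.86% of 32851 promoters of all genes and 18.6% of 11017 promoters of genes with a mean FPKM of at least 1. CCAAT was in 28.6%, against 37.4% of all and 38.6% of promoters of genes with a mean FPKM of at least 1. TGACNNNGC, the core of the antioxidant response element that NRF factors bind, was in 14.3%, against 12.4% of all. Promoters of genes with a mean FPKM of at least 1 held it in 14.1%, near the share of the proteasome genes. The matches were in Psmb5, Psmb6, Psmc6, Psmd9, Psmd12 and Psme4. In the promoters of proteasome genes 1 pair of matches overlapped, in Psmd14. A match is a run of letters, and binding was not measured.

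The promoter of Psma6 with the most CCGGAAG matches (GRCm38.p6 chr12:55398575-55398874, plus strand) and those of the catalytic subunits Psmb5 (chr14:54617946-54618245, minus strand) and Psmb6 (chr11:70525107-70525406, plus strand) with their TGACNNNGC matches are printed 5′ to 3′ on the strand of the gene, with the matches in capitals. Whether the motifs went with the direction of the 4 h values was not tested. Most genes with a CCGGAAG match were lower with HU210 at 4 h, as were 28 of all 46. Psmd13 and Psmg3, which hold a match, were higher at 0.07 and 0.51. Of the 6 genes 1.5-fold lower, Psma6, Psme3 and Psme4 had a CCGGAAG match, and Psma3, Psma4 and Psmd1 had none. TGACNNNGC was in Psmb5 and Psmb6, which were higher, and also in Psme4 and Psmc6, which were at -0.66 and -0.35.
Psma6: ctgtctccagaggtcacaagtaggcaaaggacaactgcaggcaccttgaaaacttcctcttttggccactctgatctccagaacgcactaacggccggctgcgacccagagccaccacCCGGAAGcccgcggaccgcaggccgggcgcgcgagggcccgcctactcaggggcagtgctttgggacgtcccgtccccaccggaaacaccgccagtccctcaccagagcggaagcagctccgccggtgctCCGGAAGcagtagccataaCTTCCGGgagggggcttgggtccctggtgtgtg
Psmb5: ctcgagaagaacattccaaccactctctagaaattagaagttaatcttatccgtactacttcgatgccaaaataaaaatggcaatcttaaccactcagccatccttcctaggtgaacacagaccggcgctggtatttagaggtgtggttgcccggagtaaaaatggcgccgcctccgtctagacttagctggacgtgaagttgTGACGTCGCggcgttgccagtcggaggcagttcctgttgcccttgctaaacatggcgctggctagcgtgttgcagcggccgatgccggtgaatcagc
Psmb6: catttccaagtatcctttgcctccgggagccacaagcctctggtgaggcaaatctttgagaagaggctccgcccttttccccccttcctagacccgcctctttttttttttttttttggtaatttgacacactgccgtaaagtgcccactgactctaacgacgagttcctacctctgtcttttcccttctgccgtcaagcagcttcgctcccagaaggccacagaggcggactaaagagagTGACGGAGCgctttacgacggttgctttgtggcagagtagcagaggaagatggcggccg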

How the data were processed

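RNA was sequenced from 8 libraries of N2A cells, 1 per treatment and hour. Per the submitters' processing notes and the methods, reads were mapped to mm9 with TopHat2 2.0.8, Bowtie2 2.1.0 and SAMtools 0.1.7, without new junctions. The authors computed FPKM with Cufflinks, using upper-quartile scaling, multi-read and fragment-bias correction, and deposited them with 1 added, which was subtracted here. Neither the Cufflinks version nor that of the gene models is given in the sources used here. The deposited log2 fold changes, p-values and q-values, and a table of called genes, are the authors' comparisons and were not used.

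Changes were computed with a pseudocount of 1. limma 3.58.1 (R 4.3.3) was fitted to the 11311 genes with a mean FPKM of at least 1 that were listed at all 4 time points, with time as a block, and tested on simulated data. GC content and length came from GENCODE vM1 on NCBIM37 (mm9) for 46 of 46 proteasome genes and 93.7% of the genes fitted. Trends were removed by loess (span 0.3). Depth per gene is unknown because no read counts were used. The libraries are the only samples, and p-values measure their spread over hours.

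The genes, lists and tests were chosen with earlier results of these data known. FPKM in all libraries was given for genes past 1.5-fold at an FPKM of at least 1, for genes called by limma, for the catalytic subunits with their immunoproteasome counterparts and for Pomp. Psma5, Psmg1, Psme1 and Psme2 were added after their values were seen. Alternatives were a pseudocount of 0.1, a filter, centring, other DMSO references, removal of the GC and length trend, limma-trend, leaving out the libraries of an hour, and sums with copies.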

Additional observations from a re-analysis of the deposited data

Results flagged for a closer look

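The median log2 change of the proteasome genes was -0.098 at 2 h and -0.079 at 4 h, and it was 0.054 at 6 h and 0.053 at 8 h. It was singled out because its sign changed between the early and the late hours. The difference between these medians was not tested. The expressed genes as a whole had medians of -0.051, -0.081, 0.063 and 0.044 in the same order, and removing that shift left 0.0016 for the proteasome genes at 4 h and -0.0091 at 6 h.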

How the results depend on the processing

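With 1 library per condition and no read counts, no value at a single hour has an error. The treatments were paired by hour in the limma fits, which take the hour as a block, and the labels give no replicate number that pairs samples within an hour. The 7 genes past 1.5-fold at 4 h kept their sign under every setting run. Every setting keeps the 4 h HU210 library by which the 7 were picked, so a kept sign is no independent support. All 7 stayed past the cutoff with a pseudocount of 0.1 or a filter at an FPKM of 1, and 6 with copies summed. Centring each pair on its median ratio left 3 genes 1.5-fold lower and made 4 higher at 4 h, and left 0 genes 1.3-fold higher at 6 h. In that order, the shares of all genes were 4.59%, 3.4% and 3.43%. With the average of all 4 DMSO libraries as reference, 1 was 1.5-fold lower and 0 higher at 4 h, and 2 were 1.3-fold lower and 0 higher. By that reference 2 were 1.3-fold lower at 2 h and 0 higher at 6 h. The shares of all genes were 1.26% and 0.44%, 4.47% and 1.76%, and 3.44% and 2.42%. DMSO of the other 3 hours was a reference added after the values were seen. With it the same counts of proteasome genes were 0 and 0, 1 and 0, 3 lower and 1 higher at 2 h, and 0 at 6 h. The shares of all genes were 1.08% and 0.384%, 2.89% and 1.25%, 4.63% and 3.5%, and 2.77%. Without the GC and length trend, 2 were 1.5-fold lower and 0 higher at 4 h, 5 were 1.3-fold lower, and 0 were higher at 6 h. The shares of all genes were 3.52%, 2.36%, 9.3% and 2.95%. Summed with copies, also added later, 0 were 1.3-fold lower at 2 h and 0 were 1.5-fold higher at 4 h, against 3.3% and 2.16% of all genes. The median log2 change at 2 h was -0.047 when centred, -0.053 with 4 DMSO libraries, -0.038 with the other 3 and -0.017 without the trend. At 4 h these were 0.0016, -0.029, -0.0085 and -0.016, at 6 h -0.0091, -0.063, -0.087 and -0.014, and at 8 h 0.0089, -0.016, -0.030 and -0.0061, with 0.034 for sums with copies. The sign at 6 h thus turned under all 4 of these settings, that at 8 h under 3 and that at 4 h when centred. Zfand5 at 6 h turned to -0.11 with DMSO of the other 3 hours. The cause was not tested. limma called 0 proteasome genes under every setting run, and 1 gene in all in each fit without the 4 h libraries.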
